A study of Mus musculus with 8 samples.

Results

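The 8 long noncoding RNAs described here were Gas5, Snhg1, Snhg12, Malat1, Neat1, H19, Meg3 and Kcnq1ot1, taken by name from the 55335 genes of the deposited expression tables. Gas5, Snhg1 and Snhg12 carry small nucleolar RNAs (snoRNAs) in their introns, Malat1 and Neat1 are abundant nuclear RNAs, and H19, Meg3 and Kcnq1ot1 come from imprinted gene clusters. All 8 were found by their Ensembl identifiers, and 6 of them passed the filter on low values and were tested. H19 passed it through the PPK ADT libraries alone, so its values are given as a description and it is left out of the counts of RNAs that passed. Meg3 and Kcnq1ot1 stayed under it.

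RNA came from prostate epithelium of mice, sorted as EpCAM+, CD24A+ and CD49F-low cells, in 8 libraries of 4 groups with 2 libraries each. PP sham and PP ADT mice had the genotype abbreviated PP, which every mouse of the study carried, and PPK sham and PPK ADT mice had Kmt2cPC-/- in addition. Sham mice were 3.5 months old and ADT mice 6.5 months old, so each ADT difference is a difference of ADT together with age. ADT is read here in its usual sense of androgen deprivation therapy; its method is not in the labels. The Cre driver is not given in the labels. They also do not say whether libraries A and B of a group came from separate animals, so the p-values measure only the spread between these libraries.

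Levels are FPKM, the number of sequenced fragments per length of transcript and per size of the library. The steps between low FPKM values implied about 17600000 to 25100000 fragments per library. Kmt2c, the targeted gene, was listed at 13.3 and 13.9 FPKM in PP sham against 8.67 and 8.15 in PPK sham, and at 10.3 and 9.33 FPKM in PP ADT against 6.60 and 6.36 in PPK ADT. The summed FPKM of 9 luminal markers (such as Krt8 and Foxa1) was 5687 to 5759 in PP sham, 5560 to 5644 in PPK sham, 6556 to 6610 in PP ADT and 2341 to 2362 in PPK ADT. The summed FPKM of 9 basal and squamous markers (such as Krt5 and Krt10) was 1594 to 1612, 1792 to 1797, 1396 to 1429 and 8201 to 8327 in the same order, with none at 0. In a bulk sample, fewer cells of a type and less RNA per cell cannot be told apart.

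Long noncoding RNAs of this kind work as RNA and not through a protein. Gas5, Snhg1 and Snhg12 are spliced transcripts whose introns release snoRNAs, the guides that direct chemical modification of ribosomal RNA, while the spliced exons of Gas5 and Snhg1 are known to be short-lived because translation on them triggers nonsense-mediated decay. Gas5 and Snhg1 belong to the genes with a 5′ terminal oligopyrimidine tract (5′ TOP), a run of C and T at the transcription start that ribosomal protein genes share. Malat1 accumulates in nuclear speckles, which store splicing factors, and Neat1 is the scaffold of paraspeckles, nuclear bodies built on this RNA. H19 and Meg3 are transcribed from the maternal chromosome, and Kcnq1ot1 is a paternal antisense transcript inside Kcnq1 that silences neighbouring genes.

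The start regions of the snoRNA hosts and of Malat1 are shown because 3 of these RNAs rose and 1 fell in the same comparison. The sequences are from RefSeq on build GRCm38.p6, 100 bases before to 50 after the annotated start, 5′ to 3′ on the gene's strand. Capitals mark the longest run of C and T within 25 bases of the start, or the first of them where 2 are equally long, as in Malat1. They also mark each TATAAA on either strand. Each TATATA is marked likewise, as are copies of TGACG, which overlaps its own reverse complement where the letters read TGACGTCA. The Gas5 stretch lies at chr1:161035066-161035215 (+), the Snhg1 stretch at chr19:8723387-8723536 (+), the Snhg12 stretch at chr4:132308578-132308727 (+) and the Malat1 stretch at chr19:5802623-5802772 (-).
Gas5: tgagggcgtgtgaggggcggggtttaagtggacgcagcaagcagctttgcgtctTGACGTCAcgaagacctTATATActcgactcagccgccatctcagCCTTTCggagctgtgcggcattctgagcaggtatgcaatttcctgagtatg
Snhg1: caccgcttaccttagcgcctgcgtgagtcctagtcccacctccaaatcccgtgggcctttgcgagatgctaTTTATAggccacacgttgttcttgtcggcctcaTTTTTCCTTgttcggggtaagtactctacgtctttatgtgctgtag
Snhg12: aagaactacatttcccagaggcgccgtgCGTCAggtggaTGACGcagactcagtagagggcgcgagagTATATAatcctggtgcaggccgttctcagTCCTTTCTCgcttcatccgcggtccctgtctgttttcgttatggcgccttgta
Malat1: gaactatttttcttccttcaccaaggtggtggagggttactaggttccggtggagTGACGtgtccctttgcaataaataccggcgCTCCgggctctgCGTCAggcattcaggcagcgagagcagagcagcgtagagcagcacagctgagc

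The C and T run was 9 bases long in Snhg1 and in Snhg12, a length that 13.33% of 32851 RefSeq promoter windows reached. It was 6 bases in Gas5 (43.9% of windows) and 4 bases in Malat1 (84.4% of windows). The Gas5 start shown is the second of 2 RefSeq starts, and 14 of 25 annotated transcripts began within 50 bases of it. TATATA, present in 5.67% of windows of 300 bases on either strand, was found upstream of Gas5, Snhg12 and Meg3. TATAAA (13.62% of windows) was found for Snhg1, on the reverse strand, and for Meg3. TGACGTCA (1.79% of windows) was found for Gas5 and Meg3, and the shorter TGACG (20.81% of windows) for Gas5, Snhg12, Malat1, Meg3 and Kcnq1ot1. Meg3, like Gas5, had 2 windows. In both genes the same window held all of these matches and the other held none. CCAAT (37.41% of windows) was found for Meg3 and Kcnq1ot1, and GGGCGG (35.66% of windows) for Gas5 and Snhg1. CACGTG, in 7.15% of windows, was in none of the windows of the 6 RNAs that the promoter table used here holds. These are matches of letters and not measured binding sites.

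In PPK ADT mice the snoRNA hosts were high and the nuclear RNAs low. Against PP ADT, Gas5, Snhg1 and Snhg12 rose, and Malat1 and Neat1 fell. These 5 RNAs passed in this comparison (limma, adjusted p under 0.05), 3 higher and 2 lower, where 59.6% of the 14000 tested genes passed. On the fitted log2(FPKM + 1) scale, Gas5, Snhg1 and Neat1 of the 5 also differed by at least 2-fold, as 17.8% of tested genes did. Against PPK sham, 2 of the 5 RNAs rose and 2 fell in PPK ADT, beside 31.9% of all genes that rose and 30.7% that fell (62.6% together). In PPK sham against PP sham 1 RNA of 5 passed, higher, beside 28.6% of all genes. In PP ADT against PP sham 1 of 5 passed, higher, beside 44.2% of all genes (19.1% higher). The genotype effect differed between ADT and sham for 4 of 5 RNAs, 2 upward and 2 downward, beside 52.8% of all genes (30% upward and 22.8% downward). These comparisons share libraries and are not independent of each other.

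**Figure D1:**
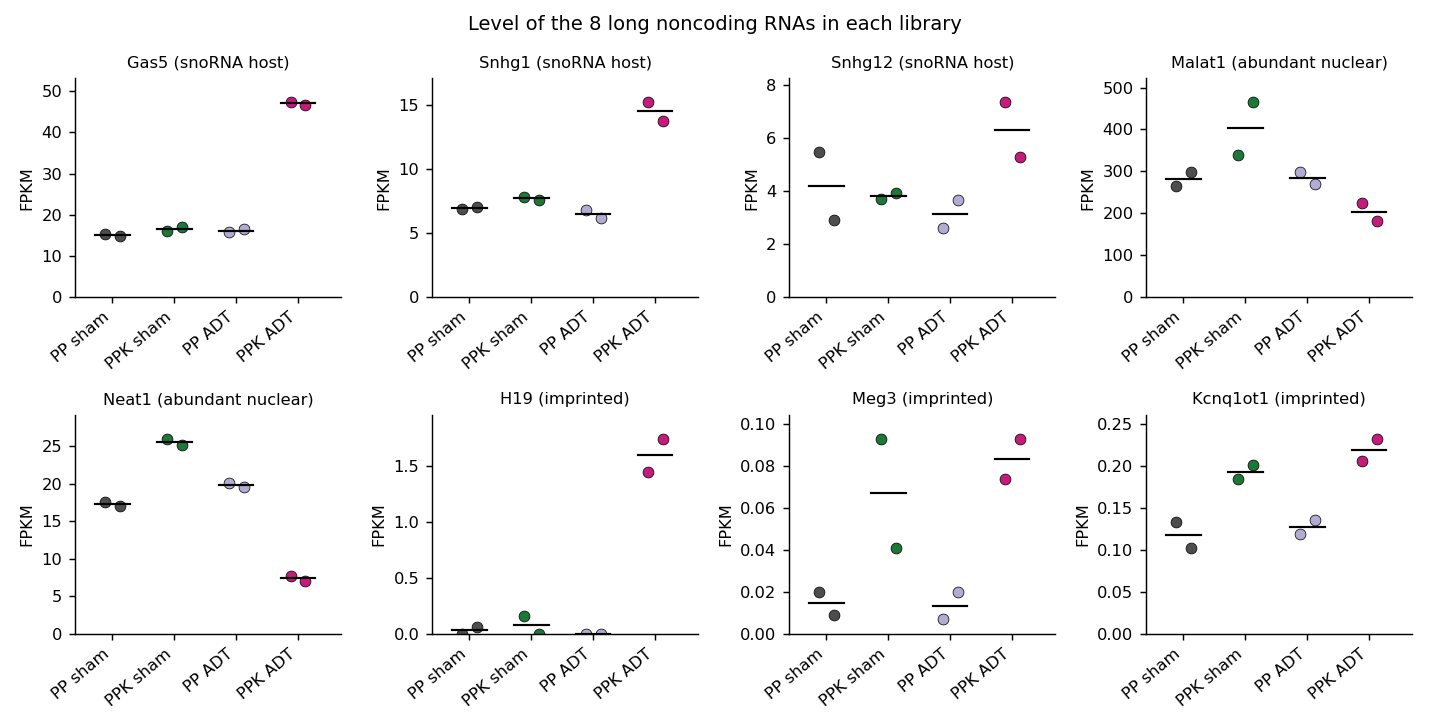
FPKM of the 8 RNAs in each library, one panel per RNA with its own linear axis from 0. Points are libraries and lines are group means of 2 libraries. Gas5 and Snhg1 stand highest and Neat1 lowest in PPK ADT, with Gas5 at 47.5 and 46.8 FPKM and Neat1 at 7.68 and 7.08 FPKM.

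Gas5 (chr1:161034422-161038539, + strand, GRCm38) was the most abundant of the 3 noncoding snoRNA hosts described. It was listed at 15.4 and 14.8 FPKM in PP sham, 16.0 and 17.0 in PPK sham, 15.7 and 16.5 in PP ADT, and 47.5 and 46.8 in PPK ADT. The first 6 libraries lay within 14.8 to 17.0 FPKM, and both PPK ADT libraries stood far above them. The mean was 2.93 times as high in PPK ADT as in PP ADT, a difference of 1.50 ± 0.048 (SE) on the log2(FPKM + 1) scale with an adjusted p of 8.97e-07 by limma. Against PPK sham the difference was 1.46 ± 0.048 with an adjusted p of 8.14e-07. The genotype difference in sham mice was 0.12 ± 0.048 with an adjusted p of 0.107, and the genotype effect was larger in ADT than in sham mice by 1.37 ± 0.067, with an adjusted p of 9.37e-06. Between PP ADT and PP sham Gas5 differed by 0.09 ± 0.048, with an adjusted p of 0.192.

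Snhg1 (chr19:8723475-8726443, + strand), which hosts the U22 snoRNA gene Snord22 among others, was likewise highest in PPK ADT. Its levels were 6.85 and 7.01 FPKM in PP sham, 7.83 and 7.54 in PPK sham, 6.79 and 6.13 in PP ADT, and 15.2 and 13.7 in PPK ADT. Both PPK ADT libraries exceeded the other 6. The PPK ADT mean was 2.24 times the PP ADT mean, with a log2 difference of 1.05 ± 0.072 and an adjusted p of 2.92e-05. Against PPK sham the log2 difference was 0.83 ± 0.072, with an adjusted p of 8.45e-05. In sham mice the genotypes differed by 0.13 ± 0.072 on the log2 scale, with an adjusted p of 0.230. The difference between the genotype effects was 0.92 ± 0.10, with an adjusted p of 0.000401.

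Snhg12 (chr4:132308623-132311024, + strand), the host of Snora44, Snora61 and Snora16a, was the least abundant of the 3 and the most variable between libraries of a group. It was listed at 5.49 and 2.91 FPKM in PP sham, 3.69 and 3.94 in PPK sham, 2.62 and 3.68 in PP ADT, and 7.37 and 5.27 in PPK ADT. The lower PPK ADT library lay below the higher PP sham library, so these groups overlapped, while PP ADT and PPK ADT did not. The log2 difference between PPK ADT and PP ADT was 0.82 ± 0.26, with an adjusted p of 0.0350 by limma. This call was lost without PP ADT A (adjusted p 0.165), without PPK ADT A (0.175), without PPK sham A or B (0.0579 in both fits), and with no filter on low values (0.0851). Against PPK sham the difference was 0.59 ± 0.26 with an adjusted p of 0.0937, and it passed in the fits without PP sham A (0.0364) or B (0.0360). The genotype effects differed by 0.88 ± 0.37 with an adjusted p of 0.0908, which passed without PP sham B (0.0178).

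Malat1 (chr19:5795690-5802672, - strand) ranked 114 of all genes by mean FPKM, above 99.2% of tested genes. It was listed at 265 and 299 FPKM in PP sham, 340 and 466 in PPK sham, 299 and 270 in PP ADT, and 225 and 182 in PPK ADT. The PPK ADT libraries were the lowest and the PPK sham libraries the highest, while PP sham and PP ADT overlapped. Malat1 was lower in PPK ADT than in PPK sham by a log2 difference of -0.97 ± 0.17, with an adjusted p of 0.00225. Against PP ADT the difference was -0.49 ± 0.17, with an adjusted p of 0.0411 that missed the threshold with a replicate block (0.0612), without a mean-variance trend (0.0555) and with no filter (0.1001). It also missed it without PP sham A or B (0.0574 and 0.0573), PP ADT A (0.165) or B (0.0816), or PPK ADT B (0.203).

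In sham mice Malat1 was higher in PPK by 0.50 ± 0.17 on the log2 scale with an adjusted p of 0.0701, and this difference passed without PPK sham A (adjusted p 0.0239) and with quantile normalization (0.0360). The genotype effect in ADT mice was lower than that in sham mice by -0.99 ± 0.24, with an adjusted p of 0.0123. The Malat1 transcript is known to lack a poly(A) tail, and whether the libraries were made from poly(A)-selected RNA is not given in the sources used here.

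Neat1 (chr19:5824708-5845478, - strand) lies next to Malat1 and changed most among the nuclear RNAs. It was listed at 17.6 and 17.0 FPKM in PP sham, 26.0 and 25.2 in PPK sham, 20.1 and 19.6 in PP ADT, and 7.68 and 7.08 in PPK ADT. No groups overlapped, and their order from low to high was PPK ADT, PP sham, PP ADT and PPK sham. Neat1 was higher in PPK sham than in PP sham by 0.54 ± 0.052 on the log2 scale (adjusted p 0.000533) and lower in PPK ADT than in PP ADT by -1.31 ± 0.052 (adjusted p 2.33e-06). The genotype effect thus had opposite signs in sham and ADT mice, and the difference of the effects was -1.86 ± 0.073 with an adjusted p of 3.73e-06. From PPK sham to PPK ADT the log2 difference was -1.67 ± 0.052, with an adjusted p of 6.62e-07.

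Neat1 was higher in PP ADT than in PP sham by 0.19 ± 0.052, with an adjusted p of 0.0261. That call was lost without PP sham A (adjusted p 0.0609) or B (0.119) and without PP ADT A (0.111) or B (0.0656). The short and the long Neat1 transcript share their 5′ end, and a gene-level FPKM does not part them.

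**Figure D2:**
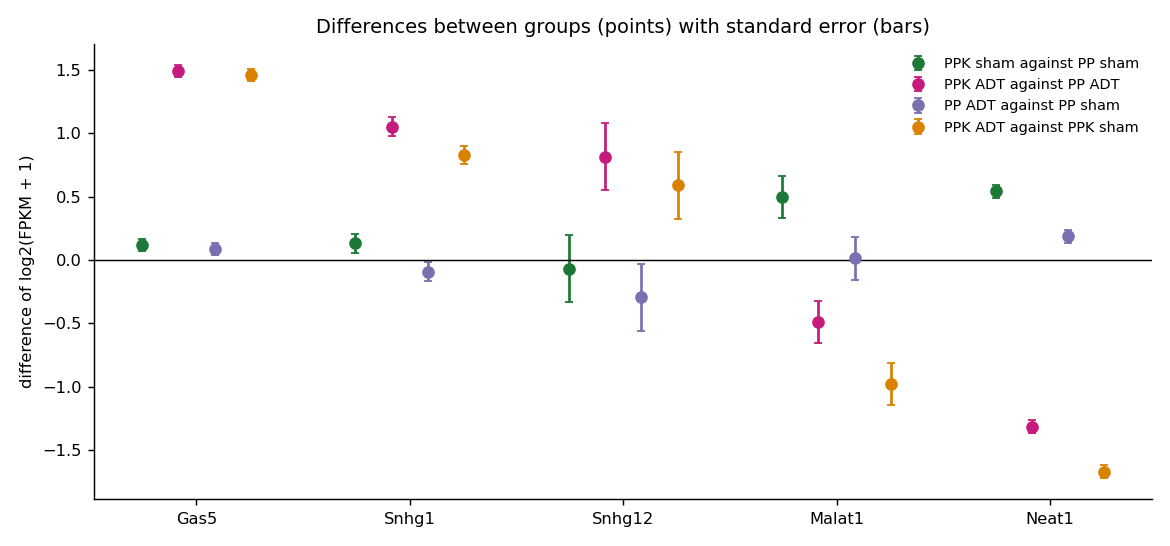
Differences of log2(FPKM + 1) between groups for the 5 RNAs with levels above 0 in all libraries that passed the filter, by comparison. Points are limma estimates and bars are standard errors. The 2 comparisons with PPK ADT lie above 0 for Gas5, Snhg1 and Snhg12 and below 0 for Malat1 and Neat1, with Neat1 at -1.31 against PP ADT and -1.67 against PPK sham.

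Within each library the balance of nuclear RNAs to snoRNA hosts does not depend on how libraries are scaled to each other. The FPKM ratio of Malat1 to Gas5 was 17.3 and 20.2 in PP sham, 21.2 and 27.4 in PPK sham, 19.1 and 16.4 in PP ADT, and 4.74 and 3.88 in PPK ADT. The ratio of Neat1 to Gas5 was 1.15 in both PP sham libraries, 1.62 and 1.49 in PPK sham, 1.28 and 1.19 in PP ADT, and 0.162 and 0.151 in PPK ADT. Neat1 was thus above Gas5 in the first 6 libraries and below it in PPK ADT. The ratio of Neat1 to Snhg1 was 2.57 and 2.42, 3.32 and 3.35, 2.96 and 3.19, and 0.505 and 0.515 in the same order of groups.

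The mean log2(FPKM + 1) of Malat1 and Neat1 minus that of the 3 hosts was 2.90 and 3.21 in PP sham, 3.43 and 3.60 in PPK sham, 3.35 and 3.16 in PP ADT, and 1.24 and 1.23 in PPK ADT. The PPK ADT libraries stood below all others and close to each other. The hosts did not move in fixed proportion, since the ratio of Gas5 to Snhg1 was 2.05 to 2.69 in the first 6 libraries and 3.12 and 3.40 in PPK ADT. These class values are descriptions without a test.

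**Figure D3:**
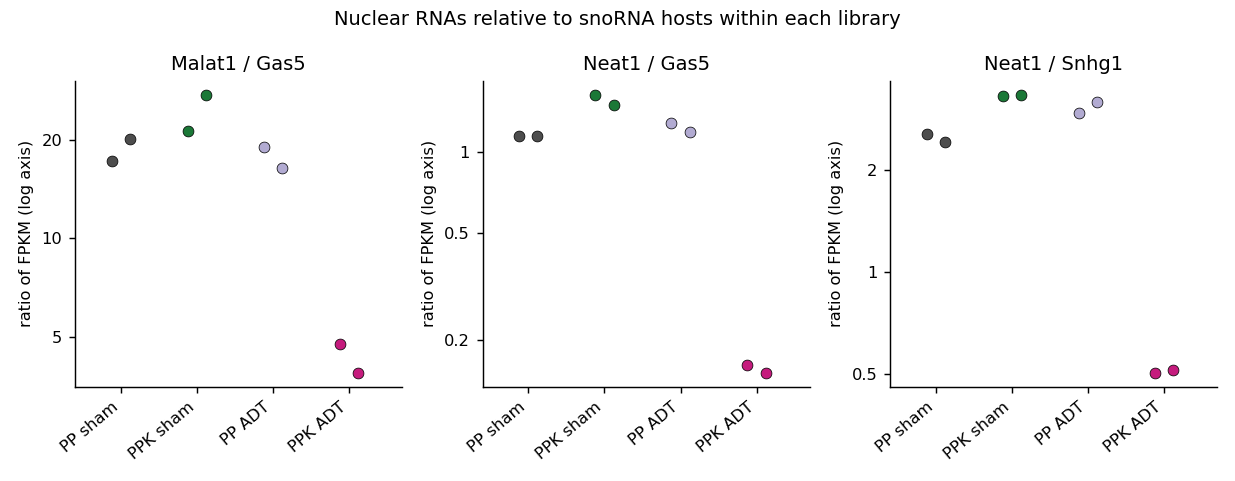
Ratios of FPKM within each library on log axes, with 2 points per group. Malat1 to Gas5 was 16.4 or more in the 6 libraries outside PPK ADT and 4.74 and 3.88 in PPK ADT, and both Neat1 ratios were lowest in PPK ADT as well.

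The imprinted RNAs were low. H19 (chr7:142575529-142578143, - strand) was listed at 0 and 0.0554 FPKM in PP sham, 0.161 and 0 in PPK sham, 0 in both PP ADT libraries, and 1.45 and 1.75 in PPK ADT. The implied fragments, which depend on the transcript length assumed, were 21 to 76 in the PPK ADT libraries and at most 6 in any other. Both PPK ADT libraries stood above the other 6. No p is given for H19, since its level in PPK ADT is what brought it past the filter, and no fold change is given against PP ADT, where it was listed at 0. Mir675, the microRNA gene inside H19, was listed at 0.183 and 0.162 FPKM in PPK ADT and at 0 in the other 6 libraries.

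Meg3 (chr12:109541001-109571726, + strand) was listed at 0.0198 and 0.00892 FPKM in PP sham, 0.0929 and 0.0409 in PPK sham, 0.00690 and 0.0198 in PP ADT, and 0.0735 and 0.0924 in PPK ADT. Kcnq1ot1 (chr7:143203458-143296549, - strand), a single transcript of 93092 bases, was listed at 0.133 and 0.102 FPKM in PP sham, 0.185 and 0.202 in PPK sham, 0.119 and 0.135 in PP ADT, and 0.206 and 0.233 in PPK ADT. The PPK libraries of both genes lay above the PP libraries of the same treatment. With 2 libraries per group such an order often arises without a difference, and its share over all genes was not counted. Because Kcnq1ot1 is so long, its low FPKM still stood for an estimated 197 to 414 fragments per library, while Meg3 stood for at most 26. Fitted without a filter, the genotype difference of Kcnq1ot1 was 0.09 ± 0.034 in sham mice (adjusted p 0.165) and 0.11 ± 0.034 in ADT mice (adjusted p 0.0536). For Meg3 the same values were 0.07 ± 0.028 (adjusted p 0.204) and 0.10 ± 0.028 (adjusted p 0.0543). A pseudocount of 1 compresses differences at these levels, and neither gene passed.

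Other snoRNA hosts were read from the same fit. Of 12 tested noncoding hosts outside the 3 described, 8 were higher and 1 was lower in PPK ADT than in PP ADT, with a median log2 difference of 1.07 beside 0.05 over all tested genes. The share of all tested genes that were higher was 32.5%, and 27.1% were lower. Snhg8 had 29.6 ± 4.53 FPKM (SD, n = 2) in PPK ADT against 7.70 ± 1.03 in PP ADT, a log2 difference of 1.81 ± 0.12 with an adjusted p of 2.41e-05. Snhg17 rose by 1.07, Snhg6 by 1.28 and Snhg15 by 1.07 on the log2 scale. Snhg18, named after its values were seen, was the host that fell, by -1.22 ± 0.15 with an adjusted p of 0.000452. In sham mice 1 of the 12 was higher in PPK (Snhg15, 0.45) and 1 lower (Snhg18, -0.52), where 13.7% of all genes were higher and 14.9% lower. In PP ADT against PP sham 0 were higher and 2 lower, Snhg11 at -1.89 and Snhg8 at -0.37, where 25.1% of all genes were lower.

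Protein-coding genes with snoRNAs in their introns included translation factors and ribosomal proteins. All 31 listed hosts were higher in PPK ADT mice than in PP ADT mice, beside 32.5% of all tested genes. Their median log2 difference was 1.42, beside 0.05 over all tested genes. Eef2, a translation elongation factor gene, differed by 1.34, and the ribosomal protein genes Rpl3, Rpl7a and Rpsa by 1.53, 1.32 and 1.67. In sham mice 2 of the 31 were higher and 5 lower in PPK, with a median of -0.03. Of all tested genes, 13.7% were higher and 14.9% lower in that comparison. Of the 31 genes, 19 encode ribosomal proteins.

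A split of all hosts by the annotation, made after values were seen, set these apart. Of 30 tested ribosomal protein genes with an annotated snoRNA, 30 were higher in PPK ADT, with a median of 1.56. Of 61 ribosomal protein genes without one, 55 were higher and 2 lower, with a median of 1.44. Of 184 other protein-coding hosts, 91 were higher and 35 lower, with a median of 0.20. Of 21 noncoding hosts outside the 3 described, 16 were higher and 1 lower, with a median of 1.07. Most ribosomal protein genes were higher, with or without a snoRNA. Of the other protein-coding hosts 49.5% were higher, beside 32.5% of all tested genes, of which 27.1% were lower. Their median of 0.20 stood beside 0.05 over all tested genes. Whether carrying a snoRNA goes with the rise was not tested. FPKM cannot fully part ribosomal protein genes from their many processed pseudogenes.

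The proteins that bind snoRNAs were higher as well. Of 16 tested genes of the box C/D and H/ACA particles, 12 were higher and 0 lower in PPK ADT than in PP ADT by limma. Their median log2 difference was 0.66. Of all tested genes, 32.5% were higher and 27.1% lower in this comparison, with a median of 0.05. Nop56, a core box C/D protein gene and itself a snoRNA host, differed by 1.19 ± 0.066, and Dkc1, the pseudouridine synthase of H/ACA particles, by 1.21 ± 0.095. Nhp2 differed by 1.10 and Nolc1 by 0.88. In sham mice Nop56 alone of the 16 passed, higher by 0.27, where 28.6% of all tested genes passed. Nonsense-mediated decay is the pathway known to degrade spliced Gas5. Of 15 of its genes, 6 were higher and 3 lower in PPK ADT, near the shares of all tested genes, with a median of 0.15. Magoh differed by 0.33, Upf3a by 0.45 and Upf1 by 0.23, and Smg6 (-0.31) and Casc3 (-0.12), named after their values were seen, were among the lower genes.

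Genes for protein partners of Malat1 and Neat1 were read against all tested genes, of which 32.5% were higher and 27.1% lower in PPK ADT than in PP ADT, with a median of 0.05. Of 18 paraspeckle protein genes, 10 were higher and 0 lower, with a median of 0.23. Nono, whose protein binds Neat1 at the paraspeckle core, had 66.5 ± 1.05 FPKM in PPK ADT and 47.0 ± 0.197 in PP ADT, a log2 difference of 0.49 ± 0.046 with an adjusted p of 0.000129. Ewsr1 differed by 0.48, Taf15 by 0.60 and Dazap1 by 0.42. In sham mice 1 of the 18 was higher in PPK (Cpsf6, 0.29) and 2 were lower (Nono, -0.21, and Sfpq, -0.26), with a median of -0.02. Of all tested genes, 13.7% were higher and 14.9% lower in sham mice. Of 24 speckle and splicing-factor genes, 16 were higher and 2 lower in PPK ADT, with a median of 0.20. Srsf2 differed by 0.91, Srsf6 by 0.59 and Tra2a by 0.50, while Srrm1 differed by -0.53 and Srsf5, named after its values were seen, by -0.37.

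**Figure D4:**
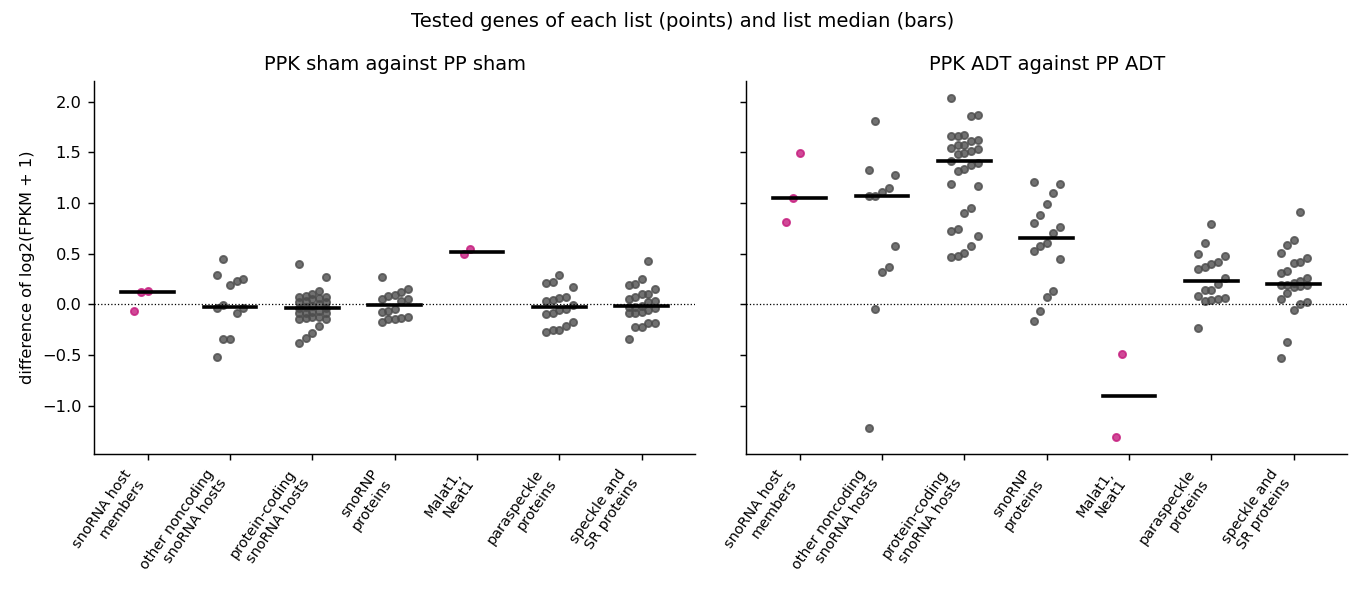
Differences of log2(FPKM + 1) for the tested genes of each list (points) and the list median (bars), in sham mice (left) and ADT mice (right). The 31 protein-coding hosts all lie above 0 in ADT mice with a median of 1.42, Malat1 and Neat1 lie below 0, and in sham mice the medians of the other host and partner lists lie near 0.

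Among 7 tested noncoding RNAs of other kinds, 3 were higher and 2 lower in PPK ADT than in PP ADT. These counts were near the shares of all tested genes, 32.5% higher and 27.1% lower. Rn7sk, the nuclear RNA that holds the transcription elongation factor P-TEFb inactive, fell from 232 ± 12.3 to 78.9 ± 4.08 FPKM, a log2 difference of -1.55 ± 0.051 with an adjusted p of 1.02e-06. Firre differed by -0.17. Rpph1, the RNA of ribonuclease P, was higher by 1.85 ± 0.39, and Mir22hg, named after its values were seen, by 0.23. Mir17hg, a microRNA host, had a fitted difference of 1.11, given as a description. It passed the filter on low values through PPK ADT alone, so its place among the 3 higher RNAs is partly built in. Rn7sk and Rpph1 are not polyadenylated, and the limit given for Malat1 applies to them too.

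Of 10 tested genes of the imprinted clusters around H19, Meg3 and Kcnq1ot1, 1 was higher and 4 lower in PPK ADT than in PP ADT. Their median was 0.06. All tested genes had a median of 0.05, with 32.5% higher and 27.1% lower. Kcnq1, the potassium channel gene that Kcnq1ot1 crosses in antisense, had 4.18 ± 0.134 FPKM in PPK ADT and 11.6 ± 0.0233 in PP ADT, a log2 difference of -1.28 ± 0.070 with an adjusted p of 1.03e-05. In sham mice Kcnq1 was higher in PPK by 0.51 ± 0.070, with an adjusted p of 0.00253. Kcnq1ot1 values were above those of PP in PPK libraries of both treatments, so the genes were ordered alike in sham and oppositely in ADT mice. Whether the counting used the strand is not given in the sources used here, and without it reads of this pair cannot be told apart. Cd81 (-0.81) and Tnfrsf23 (-1.18) fell and Nap1l4 (0.48) rose, and Osbpl5 (-0.17), named after its values were seen, fell. Cdkn1c, a growth-restraining gene that Kcnq1ot1 is known to silence, differed by 0.44 with an adjusted p of 0.0603. Of 11 imprinted genes of other clusters, 2 were higher and 4 lower, led by Grb10 at -2.01 ± 0.084. Igf2, next to H19, was under the filter, and Dlk1, next to Meg3, was listed at 0 in all libraries.

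The genes named here beside the hosts and nuclear RNAs had smaller estimates than the RNAs themselves, a contrast that was not tested. In PPK ADT against PP ADT, Zbtb37, which overlaps Gas5 on the opposite strand, differed by 0.04 ± 0.098 (adjusted p 0.722). Slc3a2, annotated 106 bases from Snhg1 on the opposite strand, differed by -0.32 ± 0.096 (adjusted p 0.0263), the reverse of Snhg1, and Wdr74 by 0.62 ± 0.11 (adjusted p 0.00294). Trnau1ap beside Snhg12 differed by 0.34 ± 0.12 (adjusted p 0.0507). Frmd8, the protein-coding gene 4224 bases from Neat1, differed by -0.07 ± 0.054 (adjusted p 0.296).

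**Figure D5:**
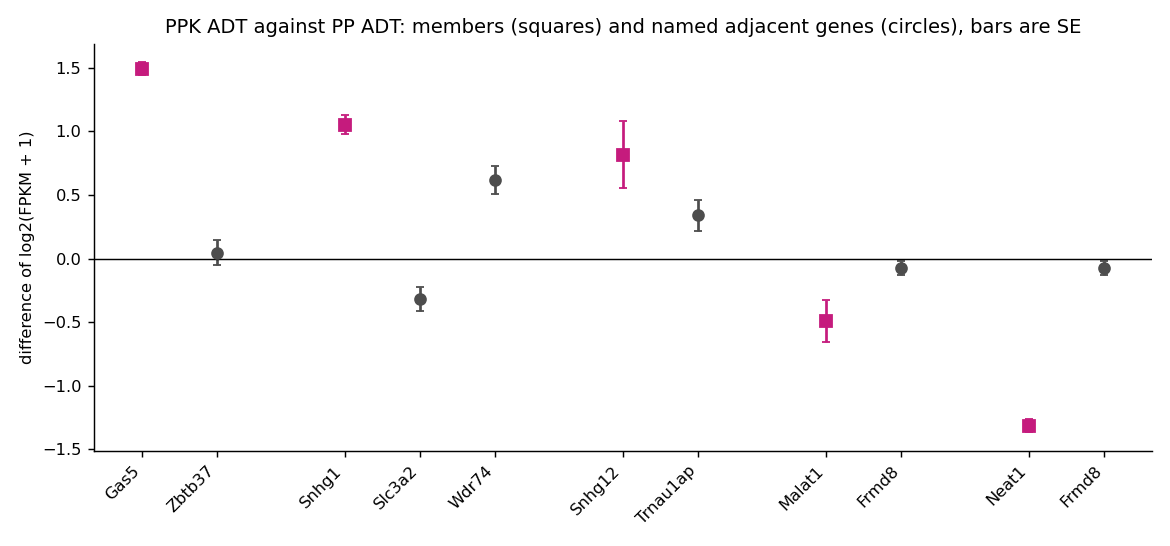
Differences of log2(FPKM + 1) between PPK ADT and PP ADT for 5 RNAs (squares) and 5 tested protein-coding genes next to or overlapping them (circles), with standard errors. Gas5 stands at 1.50 beside Zbtb37 at 0.04, and Neat1 at -1.31 beside Frmd8 at -0.07.

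The annotation places 10 snoRNA genes inside Gas5, 8 inside Snhg1 and 5 inside Snhg12, and 4, 2 and 1 of them passed the filter. Gm22357 inside Gas5 was listed at 22.3 and 14.5 FPKM in PP sham, 32.8 and 18.7 in PPK sham, 23.6 and 29.4 in PP ADT, and 68.0 and 74.2 in PPK ADT. It was highest in PPK ADT, as Gas5 was, and so were Gm25789 (10.2 and 10.9 FPKM there, 4.10 to 5.76 elsewhere) and the tested Snord80 entry (12.0 and 11.7 there, 2.44 to 8.95 elsewhere). Mir5117, the other tested gene of the annotated snoRNA class inside Gas5, did not follow it, with 11.4 and 0.0514 FPKM in PP ADT and 4.83 and 14.6 in PPK ADT. Genes this short, 60 to 137 bases in these 3 hosts, are poorly measured by fragment libraries, and reads of the unspliced host count to the same bases. Gm27505, a short annotated RNA inside Neat1, was listed at 127 and 132, 171 and 190, 142 and 160, and 57.0 and 58.4 FPKM in the same order of groups. Its groups ranked as those of Neat1 did. Its bases are part of the Neat1 transcript, so reads of Neat1 count to it and the shared order is not a separate result.

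The tested genes most like each RNA over the 8 libraries were found by Pearson correlation of log2(FPKM + 1) among 6556 genes with a mean of at least 5 FPKM, leaving out these RNAs, predicted gene models and mitochondrial genes. All 8 points come from 4 groups, so the values describe the pattern of group levels and carry no test. For Gas5 the closest were Rps12, Fscn1 and Rpl27a (0.9998 for Rps12), and 107 genes exceeded 0.99. For Neat1 they were Lgals9, Rsad2 and C77080 (0.999 for Lgals9), with 38 genes over 0.99. Rsad2, an interferon-induced gene, had 101 FPKM in each PP sham library, 258 and 260 in PPK sham, 132 and 130 in PP ADT, and 12.8 and 12.3 FPKM in PPK ADT. For Snhg1 they were Ran, Rpl7a-ps11 and Shmt2 (0.994 for Ran), with 11 genes over 0.99. Erh and Eif3h were among the closest for H19 (0.996 for Erh), with 51 genes over 0.99. H19 was near 0 outside PPK ADT, so any gene high in PPK ADT alone is close to it by construction. Gas5 and Snhg1 also stood apart mainly in PPK ADT, so the same largely holds for them. Snhg12 (with Ccdc97 and Csnk2a1 among the closest, 0.912 at most) and Malat1 (Itsn2, Sympk and Usp19, 0.971 at most) had no gene over 0.99.

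Markers of cell types moved between the same groups as these RNAs. In PPK ADT against PP ADT, 9 of 9 tested basal and squamous markers were higher, and 0 of 9 luminal markers were higher while 8 were lower. Among the basal and squamous markers, Trp63 passed the filter on low values through PPK ADT alone, so its call is partly built in. The shares of all tested genes in this comparison were 32.5% higher and 27.1% lower. Of 13 fibroblast markers 9 were tested and 9 were higher, and their summed FPKM was 7.28 to 7.66 in PP sham, 23.3 to 24.1 in PPK sham, 5.81 to 6.08 in PP ADT and 55.4 to 57.4 in PPK ADT, with none at 0. Of these markers, Postn, Thy1, Lum and Fbln2 passed the filter on low values only through their PPK ADT libraries. Their calls are thus partly built in. Macrophage and monocyte markers summed to 65.4 to 65.7 FPKM in PP sham (1 of 12 at 0), 133 to 135 in PPK sham, 136 to 146 in PP ADT and 53.5 to 54.6 in PPK ADT. Most of that sum outside PPK ADT was Cd14, at 41.3 and 41.7 FPKM in PP sham, 89.4 and 91.5 in PPK sham, 96.2 and 101 in PP ADT, and 16.4 and 13.6 in PPK ADT. Of the 7 tested, 5 were lower in PPK ADT than in PP ADT, Lyz2 was higher by 0.58 (adjusted p 0.00760), and Cd68 differed by 0.03 (adjusted p 0.773). Gas5, Snhg1, Neat1 and Malat1 are expressed in many cell types, and the part of these markers' cells in the differences above was not tested.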

How the data were processed

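RNA of sorted prostate epithelium was measured in 8 libraries, 2 per group. Trizol extraction of total RNA and a strand-specific TruSeq kit were used, per the labels' protocols. The authors deposited FPKM values, 1 table for each library. FastQC 0.11.2 and the build mm10 are named in the submitters' processing notes. Which aligner, quantifier and annotation made the values is not given in the sources used here. Organoid samples were not analysed here. An allele shared by all groups and some genes that the rules below select are not reported here.

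Of 55335 Ensembl identifiers, 55154 matched GENCODE M21 (GRCm38). The 14000 genes that reached 1 FPKM in 2 or more libraries entered a fit of log2(FPKM + 1) by limma 3.58.1 (R 4.3.3) with 1 mean per group and a trend of variance on level, leaving 4 residual degrees of freedom and adding 2.4 prior ones. Tests were two-sided and Benjamini-Hochberg adjusted over all tested genes, with a threshold of 0.05, and the script was tested on simulated data. Differences on this scale understate the changes of low genes. Other steps used Python 3.11.15 with matplotlib 3.10.9, scipy 1.17.1, numpy 2.4.6 and pandas 2.3.3.

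Fragments per library were estimated from FPKM times length of genes with 1 transcript, where 22.5 to 25.5% of low values fell within 0.02 of a whole multiple of a common step. The tables used here hold FPKM and not counts, so no counting intervals are given. FPKM cannot part near-identical genes. The RNAs and the gene lists were chosen with earlier results of these data known. Named from each list were up to 4 genes with the smallest adjusted p of a comparison, besides neighbours and the 3 most correlated genes. Same-letter libraries deviated together at -0.00791 to 0.0566 between groups, so letters were not used as pairs. Alternatives were another pseudocount, filter or scaling, a replicate block, fewer groups, no trend, and leaving out each library.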

Additional observations from a re-analysis of the deposited data

Results flagged for a closer look

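For 4 RNAs the difference between PPK and PP was itself different in ADT and in sham mice, by the test of that difference (limma, adjusted over all genes). On the log2(FPKM + 1) scale the effect in ADT minus the effect in sham was 1.373 for Gas5 and 0.9227 for Snhg1. It was -0.9879 for Malat1 and -1.858 for Neat1. For Neat1 the effect in sham mice was 0.54 and in ADT mice -1.31, so it changed sign. Beside these, 52.8% of all tested genes passed the same test. For H19 the fitted value was 1.307, given as a description, since H19 passed the filter only through PPK ADT. That number depends on the pseudocount, because H19 was listed at 0 in both PP ADT libraries.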

How the results depend on the processing

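An estimate cannot change with a replicate block, no trend, fewer groups, or a library outside the comparison left out. In these fits direction was fixed in advance, and only the adjusted p could change sides. H19 passed the filter through PPK ADT alone, so its results with PPK ADT are partly built in. Read with these limits, for 30 values of single RNAs (H19 included), 434 of 464 alternative values kept direction and side of the threshold. The rest are given with the RNAs above, except Gas5 in PP ADT against PP sham, which passed with median-of-ratios scaling (0.16, adjusted p 0.0301), Snhg12 in PPK ADT against PPK sham, which passed with only those groups fitted (adjusted p 0.0372), and signs that turned among differences under the threshold. Without single libraries, the difference in sham mice ranged from -0.4325 to 0.2981 for Snhg12 and from -0.0389 to 0.176 for H19. In PP ADT against PP sham it ranged from -0.6573 to 0.0733 for Snhg12, from -0.0718 to 0.0983 for Malat1 and from -0.0777 to 0 for H19. RNAs that passed numbered 2 in sham mice with quantile normalization and 1 to 2 without single libraries. In PP ADT against PP sham they numbered 2 with median-of-ratios scaling and 0 to 1 without single libraries. With a replicate block, 3755 genes passed in sham mice, 8182 in PPK ADT against PP ADT, 6013 in PP ADT against PP sham, 8626 in PPK ADT against PPK sham and 7186 for the difference of effects, and the block ended the call of Malat1 in PPK ADT against PP ADT and no other call of these RNAs. With a mean of at least 5 FPKM required, fewer genes were tested, and 4918 passed in PPK ADT against PP ADT (8340 before), 3933 in PP ADT against PP sham (6185), 5056 in PPK ADT against PPK sham (8765) and 4476 for the difference of effects (7395). H19 and Snhg12 could not be fitted there. Depth limits H19 and Meg3 most.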
